A study of Mus musculus with 2 samples.

Results

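The Mir378 hairpins and Gm25301, the miRNA gene annotated across Mir378a on the other strand, were taken by gene name from GENCODE M21. The 4 genes Mir378a, Mir378b, Mir378c and Gm25301 are 4 of the 2202 miRNA genes counted in each table. Mir378d, the only other hairpin of that name in the annotation, is described beside them. Of these genes, Mir378a had 142554 CPM (sense-strand counts scaled to a library total of 1000000) in replicate 2, against 106198 CPM in replicate 1, the highest of any miRNA gene in both libraries among reads given to a gene, whereas Mir378b, Mir378c and Mir378d together held 0.232% of the family's counts in replicate 2 and 0.266% in replicate 1. Gm25301 had no sense count in either library. Reads aligned to several places, 46.8% of the table in replicate 2 and 42.3% in replicate 1, were given to no gene.

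The libraries hold small RNA from hearts of male 5xFAD/CAST mice, which were adult (8 to 10 months old), and the 2 libraries form a single group. 5xFAD is a transgenic line whose transgenes are driven by the neuronal Thy1 promoter, and CAST is a wild-derived strain. The labels do not say whether the sampled animals carried the transgenes, and no control group is among the libraries. Both libraries come from total RNA of heart tissue, with a labelled size range below 30, and share a donor entry while having biosample entries of their own. The labels do not say that the replicates are separate animals, so a difference between the libraries may be technical. The tests below set one library against the other with counting error alone and include no spread between animals.

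A miRNA is cut from a hairpin in a longer transcript by Drosha and Dicer, and guides Argonaute to messages that pair with its seed, the bases near its 5′ end. miR-378 is encoded within Ppargc1b, the gene of PGC-1β, a transcriptional coactivator of mitochondrial oxidative metabolism. In mice, loss of miR-378 and its partner strand was reported to raise oxidative capacity and resistance to diet-induced obesity, and miR-378 has been linked to cardiac muscle cell survival and growth.

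The mature miRNAs of the minor hairpins show how closely the family's products resemble each other and where they part. RefSeq entries (build GRCm38.p6) were matched for 3 of the 4 hairpins named Mir378; Mir378a is named only. Sequences run 5′ to 3′, and capitals mark the seed, bases 2 to 8.
mmu-miR-378b: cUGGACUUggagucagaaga
mmu-miR-378c: aCUGGACUuggagucagaagc
mmu-miR-378d: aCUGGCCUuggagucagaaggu
In genome coordinates of that build, mature miR-378b lies at chr11:88352839-88352858 on the plus strand. Mature miR-378c lies at chr14:46954905-46954925 on the minus strand and mature miR-378d at chr10:126710355-126710376, also on the minus strand. Between miR-378c and miR-378b, which starts 1 base later, 19 of 20 aligned bases were identical and the difference was C21A, counted from the 5′ end of miR-378c. Between miR-378c and miR-378d, 19 of 21 aligned bases were identical, and A6C and C21G set them apart. A6C falls in the seed, and miR-378b and miR-378d differed at A5C and A20G, counted from the 5′ end of miR-378b. With the 1-base offset of miR-378b and the seed difference of miR-378d, the 3 printed seeds differ from each other.

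The full hairpins are shown because the mature miRNA sits at different ends of them. Capitals mark the mature miRNA.
Mir378b hairpin: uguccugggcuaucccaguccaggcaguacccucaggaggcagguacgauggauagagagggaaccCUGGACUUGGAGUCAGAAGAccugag
Mir378c hairpin: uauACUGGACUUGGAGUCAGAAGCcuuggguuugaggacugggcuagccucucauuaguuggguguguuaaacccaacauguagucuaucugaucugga
Mir378d hairpin: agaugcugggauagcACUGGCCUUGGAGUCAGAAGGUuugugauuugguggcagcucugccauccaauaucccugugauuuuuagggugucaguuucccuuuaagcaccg
In Mir378b the mature bases are positions 67 to 86 of 92 and lie nearer the 3′ end. In Mir378c they are positions 4 to 24 of 99 and in Mir378d positions 16 to 37 of 110, both nearer the 5′ end. The predicted minimum free energy fold (RNAfold) paired 15 mature bases in Mir378b, 15 in Mir378c and 13 in Mir378d, and 6 of the 7 seed bases in each.

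Mir378a was the shortest hairpin of the family, at 66 nt, and folded the most tightly for its annotated length. Its predicted fold of -38.5 kcal/mol, or -0.583 kcal/mol per base, was stronger per base than that of 92.0% of the 325 detected miRNA genes, those with at least 10 sense counts in each library. Mir378b had -0.338, Mir378d -0.318 and Mir378c -0.273 kcal/mol per base, against a median of -0.435 over the detected genes. Only 8.00%, 4.92% and 1.23% of detected genes folded more weakly than Mir378b, Mir378d and Mir378c by this measure. Energy per base was taken over the annotated span, so it depends on where the annotation ends each hairpin. The longest stretch of identical bases was 20 nt between Mir378a and Mir378c, 19 nt between Mir378a and Mir378b and between Mir378b and Mir378c, 15 nt between Mir378a and Mir378d, and 14 nt between Mir378d and either of Mir378b and Mir378c. Of the 20-base windows within each hairpin, 4 of 47 in Mir378a, 0 of 73 in Mir378b, 1 of 80 in Mir378c and 0 of 91 in Mir378d also occurred in another annotated transcript on either strand, leaving out Gm25301, which covers the same bases as Mir378a.

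Mir378a (ENSMUSG00000105200.1) lies on chromosome 18 at 61397835 to 61397900 on the minus strand of build mm10. It sits in the first intron of Ppargc1b, on the host's strand, in each of the gene's 3 annotated transcripts. The hairpin starts 2389 nt past the end of exon 1, and the next exon follows 15311 nt (transcript 201), 74526 nt (202) or 7748 nt (203) further on. Gm25301 (ENSMUSG00000093026.1) spans 61397813 to 61397925 on the plus strand, 113 nt that contain all 66 nt of Mir378a. The other hairpins lie on other chromosomes: Mir378b (ENSMUSG00000092985.1) on chromosome 11 at 88352773 to 88352864, plus strand, and Mir378c (ENSMUSG00000099036.1) on chromosome 14 at 46954830 to 46954928, minus strand. Each lies opposite an intron of a coding gene, Msi2 for Mir378b and Samd4 for Mir378c, and not on the host's own strand. Mir378d (ENSMUSG00000098756.1), on chromosome 10 at 126710282 to 126710391, minus strand, overlaps no annotated gene, and the nearest coding gene, Atp23, is 158036 bp away.

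**Figure D1:**
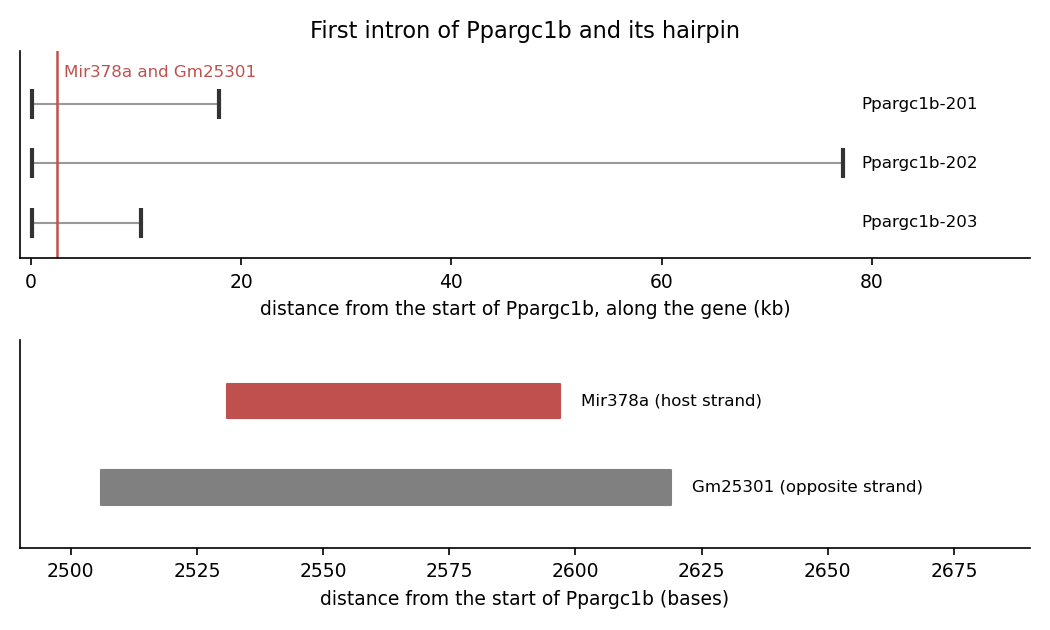
The upper panel draws the first intron of the 3 Ppargc1b transcripts against distance from the gene's start in kb, with ticks at the exon positions and a line at the hairpin. The lower panel shows, in bases, Mir378a (66 nt) lying inside Gm25301 (113 nt) on the opposite strand.

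Mir378a, whose products come from the Ppargc1b intron, was counted 721126 times in replicate 2 and 413035 times in replicate 1 on the sense strand. It ranked 1 of 2202 in each library, at 124376 ± 25707 CPM (SD, n = 2). Its share of all sense counts was 14.3% (14.2 to 14.3) in replicate 2, against 10.6% in replicate 1 (10.6 to 10.7). These bounds, and those of other shares below, are 95% Clopper-Pearson intervals. The libraries hold 5058613 and 3889280 sense counts, which makes these intervals narrow, and they cover the counting error of reads only. PCR copies of a molecule are counted as separate reads, so the intervals may be too narrow for molecules.

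The remaining hairpins were rare by comparison, and in both libraries they kept the order Mir378d, Mir378c, Mir378b. Mir378d, which the list of members leaves out, had 286 CPM in replicate 2 and 253 CPM in replicate 1, from 1445 and 985 counts, and ranked 94 by mean level. Mir378c had 29.9 CPM in replicate 2 and 19.5 CPM in replicate 1, from 151 and 76 counts, and ranked 201. Mir378b had 15.6 CPM in replicate 2 and 10.8 CPM in replicate 1, from 79 and 42 counts, and ranked 231. Among the 325 detected genes, Mir378d stood at the 71.4th percentile of mean level, Mir378c at the 38.5th and Mir378b at the 29.2nd. Mir378b and Mir378c share stretches of 19 nt and 20 nt with Mir378a, and whether its reads add to their counts was not tested.

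Within the family, Mir378a held 99.8% ± 0.0245 of the counts of the 4 hairpins. For every 100000 Mir378a counts, Mir378d had 200.4 (190 to 211) in replicate 2, against 238 (224 to 254) in replicate 1. The difference between the libraries in that ratio passed Fisher's exact test (odds ratio 0.840, 95% interval 0.774 to 0.912, adjusted p = 8.75e-05 over 3 comparisons). For Mir378c the values were 20.9 in replicate 2 (17.7 to 24.6) and 18.4 in replicate 1 (14.5 to 23.0), with an odds ratio of 1.14 (0.858 to 1.52) that did not pass (Fisher's exact test, adjusted p = 0.556). For Mir378b they were 11.0 in replicate 2 (8.67 to 13.7) and 10.2 in replicate 1 (7.33 to 13.7), with an odds ratio of 1.08 (0.732 to 1.61, adjusted p = 0.777, Fisher's exact test). The intervals of Mir378b and Mir378c overlap between the libraries and those of Mir378d do not. The 3 hairpins together were 1675 of 722801 family counts in replicate 2 and 1103 of 414138 in replicate 1, odds ratio 1.15 for Mir378a (Fisher's exact test, p = 0.000352). Mir378d supplied 1445 of the 1675 and 985 of the 1103, so this pooled result mostly restates that of Mir378d. Counted per hairpin base, Mir378a still held 99.98% of the 3 listed hairpins' counts, a scaling chosen after the data had been seen.

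**Figure D2:**
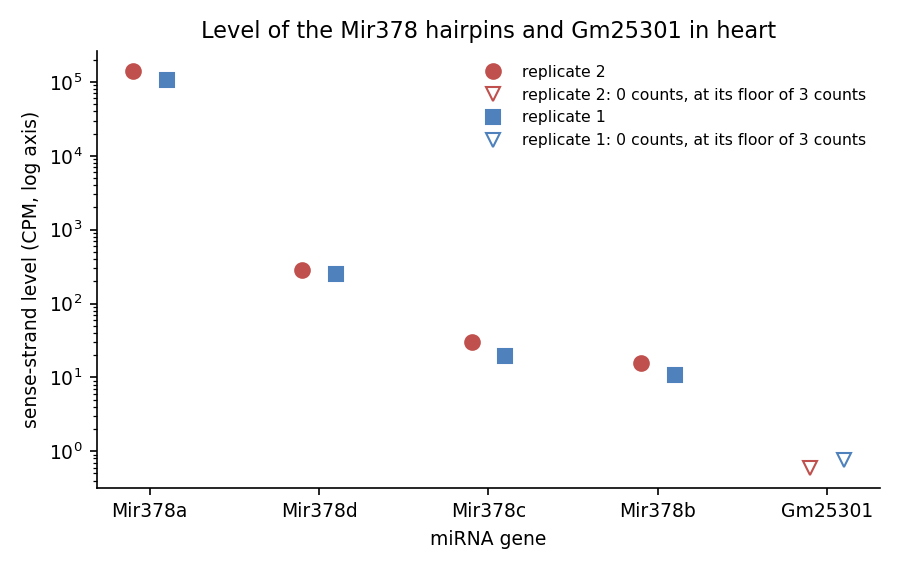
Sense-strand levels in CPM (log axis) of Mir378a, Mir378b, Mir378c, Mir378d and Gm25301, replicate 2 left of replicate 1. Mir378a stands at 142554 and 106198 CPM and Mir378d at 286 and 253 CPM. Gm25301, with 0 counts in both, is drawn as open triangles at each library's floor of 3 counts.

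**Figure D3:**
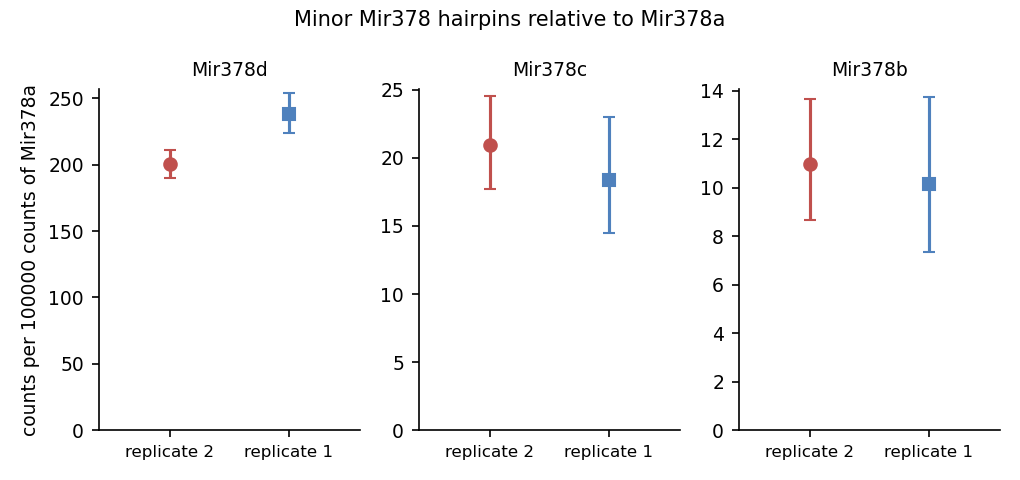
Counts of Mir378d, Mir378c and Mir378b per 100000 Mir378a counts, with 95% exact intervals, replicate 2 beside replicate 1. Mir378d stands lower in replicate 2 (200.4) than in replicate 1 (238), and the intervals of Mir378c and Mir378b overlap between the libraries.

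The next gene in level was Mir126a, the hairpin of the endothelial gene Egfl7. Against it, Mir378a counted 1.62 times as high in replicate 2 (1.62 to 1.63) and 1.22 times as high in replicate 1 (1.21 to 1.22), a mean of 1.42 ± 0.286. Per hairpin base, a scaling added after the data had been seen, the mean ratio was 1.57. Both libraries put Mir378a ahead, and the size of the lead differed between them by more than counting error.

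Whether Mir378a has a count at all depended on which deposited column was read. At the Ppargc1b intron the opposite-strand column held 721126 counts for Gm25301 in replicate 2 and 413035 in replicate 1, the same numbers as Mir378a's sense counts. Gm25301 had 0 sense counts in both, which allows a level of up to 0.593 CPM in replicate 2 and 0.771 CPM in replicate 1, and the 47 nt by which it exceeds Mir378a added 0 counts. In the column that ignores strand, Mir378a and Gm25301 were both at 0. Mir378a ranked 691 there, the lowest place, which all genes at 0 share. That column set aside 1274429 reads in replicate 2 and 857957 in replicate 1 as ambiguous, and Mir378a's sense count equalled 56.6% and 48.1% of those numbers. Of all opposite-strand counts, those at Gm25301 made up 56.6% (56.5 to 56.7) in replicate 2, against 48.1% (48.0 to 48.2) in replicate 1. Opposite-strand counts were 20.1% of all counts on either strand in replicate 2 and 18.1% in replicate 1, and 9.86% and 10.3% with Gm25301 left out. These percentages do not measure antisense reads, because a read at genes annotated on both strands enters both columns. Opposite-strand counts totalled 1274539 in replicate 2 and 858065 in replicate 1. Sense counts of miRNA genes annotated on both strands summed to 1274452 and 857986.

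Opposite-strand annotation of the same bases occurred at 32 pairs of miRNA genes, 24 of them with at least 10 counts. At 22 of these 24 the opposite-strand count of one gene equalled the sense count of its partner in both libraries. The pair of Mir378a and Gm25301 was the largest, followed by Mir126a with Mir126b. Mir126a's sense count equalled 34.8% of the ambiguous reads in replicate 2 and 39.5% in replicate 1, and its pair differed by 23 and 27 counts, so it was one of the 2 pairs that were not equal. On the same scale Mir191 (opposite Gm24083) stood at 3.09% and 3.79%, Mir30e (opposite Mir30f) at 1.79% and 3.95%, and Mirlet7e (opposite Gm25927) at 2.47% and 2.82%. The sense counts of Mir378a and Mir126a together equalled 91.4% of the ambiguous reads in replicate 2 and 87.6% in replicate 1.

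**Figure D4:**
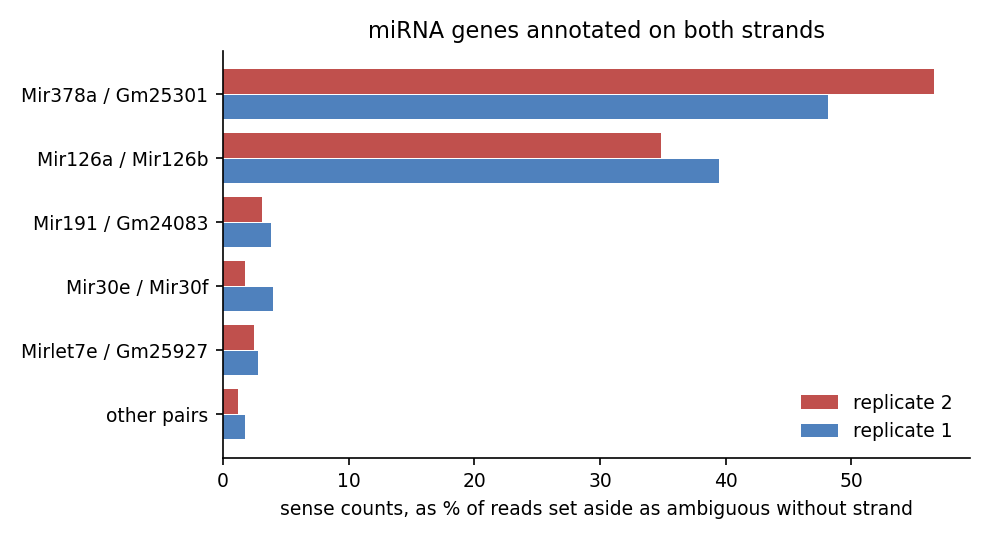
Sense counts of the 5 opposite-strand pairs with the most strand-specific counts, and of the other pairs summed, as a percent of the reads set aside as ambiguous, with replicate 2 above replicate 1. Mir378a with Gm25301 stands at 56.6% and 48.1%, above Mir126a with Mir126b at 34.8% and 39.5%.

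Between the libraries, 3 of the 4 listed genes had enough counts to be tested (a sum of at least 10), Gm25301 did not, and all 3 were higher in replicate 2, as were 22.6% of the 412 genes tested. The test was an exact binomial one, two-sided, with the expected split set by the libraries' TMM effective sizes (edgeR). Its p-values were adjusted by Benjamini-Hochberg across those 412 genes, with a threshold of 0.05. Log2 ratios are replicate 2 over replicate 1 with 1 CPM added to both. Folds and their bounds come from the scaled counts with nothing added, so they can differ from the log2 ratio at low counts. Mir378a had a log2 ratio of 0.55, a fold of 1.46 (1.45 to 1.47), and its exact binomial p-value is below the smallest number the software represents. Mir378c had a log2 ratio of 0.70, a fold of 1.66 (1.25 to 2.22), adjusted p = 0.000676 (exact binomial test). Mir378b had a log2 ratio of 0.61, a fold of 1.57 (1.07 to 2.34), adjusted p = 0.0390 (exact binomial test). This call of Mir378b was lost with total counts (log2 0.49, adjusted p = 0.104), with total counts without Mir378a (0.55, adjusted p = 0.0707) and with no low-count filter (0.61, adjusted p = 0.0653), all by the exact binomial test. Mir378d had a log2 ratio of 0.29, a fold of 1.23 (1.13 to 1.33), adjusted p = 2.51e-06 (exact binomial test).

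The test calls many genes at this depth. Of all those tested, 45.4% were called in either direction, 22.6% higher in replicate 2 and 22.8% higher in replicate 1. Among the 58 genes of at least 1000 mean CPM, 93.1% were called, 46.6% higher in replicate 2 and 46.6% higher in replicate 1, so a call at the level of Mir378a is the usual outcome. Of those 58 genes, 20 had a larger absolute log2 ratio than Mir378a and 37 a smaller one, with a median of 0.29 and a highest value of 3.22. With total counts in place of TMM, the calls were 79 higher and 120 lower in replicate 2, against 93 and 94 with TMM, and log2 ratios shifted by -0.12, so that of Mir378a was 0.42.

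**Figure D5:**
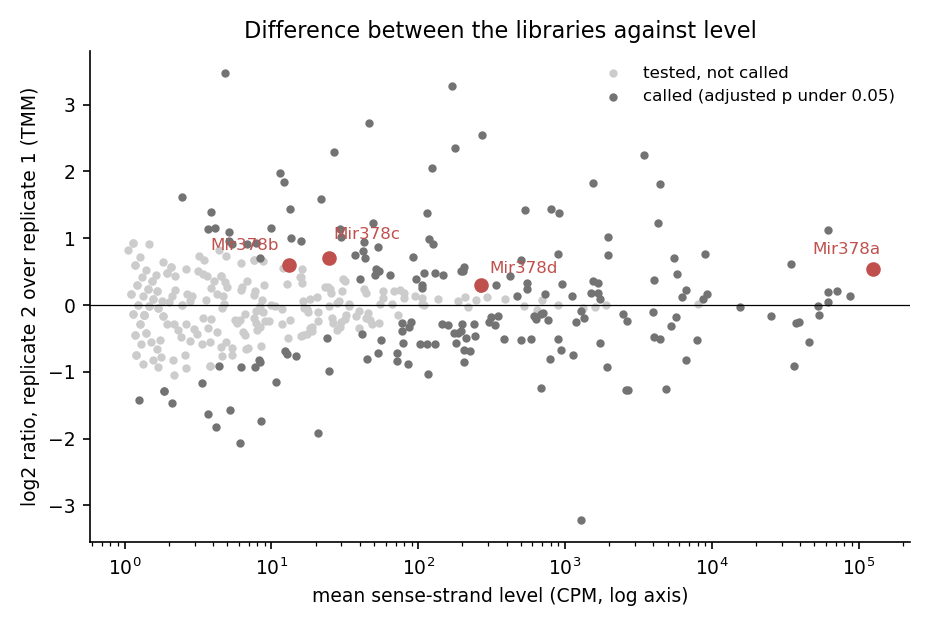
Log2 ratio of replicate 2 over replicate 1 (TMM) against mean sense level in CPM (log axis) for the 412 tested genes, dark where called. Mir378a stands at the right edge at 0.55, and Mir378b, Mir378c and Mir378d also lie above 0.

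The genes of at least 1000 mean CPM whose log2 ratio lay nearest to that of Mir378a, over 2 libraries, were Mir143 (0.61), Mir151 (0.46), Mir27b (0.71), Mir322 (0.38) and Mir10a (0.36), with absolute differences of 0.064, 0.082, 0.165, 0.165 and 0.190. With 2 libraries this likeness describes only the direction and size of a single difference. Mir143 is also a neighbour of Mir378a on the chromosome. Within 500 kb there were 6 other miRNA genes, Gm25301 among them, and Mir143 and Mir145a, a pair of smooth muscle miRNAs on the same strand, lay 251 kb and 250 kb away. Mir143 had 40225 CPM in replicate 2 and 28674 CPM in replicate 1, and Mir145a 1522 and 1463 CPM, with log2 ratios of 0.61 and 0.18. Of the others, Mir6983 had 3 and 0 counts, and Mir7220 and Mir6982 had 0 in both.

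Mir378a had the highest level of the hairpins in sense introns of coding genes. Of the 325 detected genes, 120 lie in such introns and held 49.5% of sense counts in replicate 2 and 51.8% in replicate 1. Mir378a held 28.8% of these in replicate 2 and 20.5% in replicate 1. The next were Mir126a (87451 ± 476 CPM), Mirlet7g in Wdr82 (71319 ± 2977), Mir23b in 2010111I01Rik (54033 ± 7153), Mir139 in Pde2a (37568 ± 7051) and Mir149 in Gpc1 (36345 ± 17563), each as mean ± SD of 2 libraries. Mir126a overlaps exonic bases of Egfl7 and is listed in an intron of Gm20532.

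A list of 20 miRNAs with known roles in lipid, glucose and mitochondrial metabolism, the setting in which miR-378 is known, was called in both directions. Of the 19 that matched, 17 were detected and 18 tested. 5 were higher in replicate 2 (Mir27a, Mir27b, Mir34a, Mir106b and Mir210), 5 were higher in replicate 1 (Mir103-2, Mir107, Mir23a, Mir29a and Mir93), and 8 did not pass. That is 5 of 18 each way, against 22.6% and 22.8% of all tested genes. The median log2 ratio of the 18 tested was 0.015, against -0.0077 over all 412 tested genes, and the list held 7.40% of sense counts in replicate 2 and 9.42% in replicate 1. Mir23a, the most abundant, had 35467 CPM in replicate 2 and 56336 CPM in replicate 1. Mir29a had 14729 and 16356 CPM, and Mir34a 8608 and 8747 CPM. Mir34a had a log2 ratio of 0.10 with TMM and -0.023 with total counts, and Mir29a had -0.030 with TMM and 0.018 in the column that ignores strand, so the direction of either flips with the processing. With total counts the call of Mir34a was also lost (adjusted p = 0.0541, exact binomial test). The call of Mir107 was lost in the column that ignores strand (log2 -0.074, adjusted p = 0.0871, exact binomial test). Calls were also gained among the 8 that did not pass. Mir130a was called lower in replicate 2 with total counts (log2 -0.11, adjusted p = 1.08e-06, exact binomial test). In the column that ignores strand Mir130a was called higher (0.056, adjusted p = 0.0285), as was Mir181c (0.14, adjusted p = 0.0142), both by the exact binomial test.

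Marker miRNAs of other cell types were measured beside these levels, and their part in the level of Mir378a was not tested. Heart tissue holds muscle, endothelial, smooth muscle and blood cells, and in bulk RNA fewer cells of a type and less RNA per cell cannot be told apart. The 7 cardiac muscle markers summed to 7481 CPM in replicate 2 and 6776 CPM in replicate 1. All 7 were tested, with 2 members higher in replicate 2 (Mir499 and Mir1a-2) and 2 lower (Mir208a and Mir208b). Among all 412 tested genes, 22.6% were higher in replicate 2 and 22.8% lower. Mir499, from a myosin heavy chain gene, had 5888 CPM in replicate 2 and 2732 CPM in replicate 1 (log2 1.23). Mir208a, from another such gene, had 1485 CPM in replicate 2 and 3885 CPM in replicate 1 (log2 -1.27). Hairpins of miR-1 and miR-133, muscle miRNAs encoded by near-identical copies, were given few counts. Mir1a-1 had 5 and 9 counts, Mir1a-2 222 and 141, Mir133a-1 18 and 14, and Mir133a-2 14 and 10. Reads aligned to several places were given to no gene, so these counts do not measure the level of miR-1 or miR-133. The sum of the 7 markers has the same limit. With total counts the call of Mir1a-2 was lost (adjusted p = 0.148, exact binomial test). Mir378a counted 24.2 times Mir499 in replicate 2 and 38.9 times in replicate 1, and 96.0 and 27.3 times Mir208a. The endothelial marker Mir126a had 87787 CPM in replicate 2 and 87115 CPM in replicate 1, and the 2 smooth muscle markers 41747 and 30137 CPM. The brown fat list, a tissue in which miR-378 is also studied, summed to 1212 CPM in replicate 2 and 1139 CPM in replicate 1, mostly from Mir455 at 1026 and 894 CPM. Of its 7 members 3 were detected, against 325 of all 2202 miRNA genes. Of the 6 tested, 1 was called higher in replicate 2 and 1 lower, against 22.6% and 22.8% of all tested genes. Skeletal muscle markers summed to 16.8 and 18.8 CPM, leukocyte markers to 1789 and 1957 CPM, and the hepatocyte marker Mir122 to 27.1 and 28.8 CPM. Of the erythroid markers, which summed to 217 and 320 CPM, Mir144 was higher in replicate 2 (52.4 and 32.1 CPM, log2 0.81) and Mir451a lower (165 and 288 CPM, log2 -0.68).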

How the data were processed

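Heart microRNA-seq tables of 2 libraries in 1 group were used. The authors deposited raw read counts per miRNA gene, with 3 count columns and 4 summary lines that name no gene, and, per the deposited description files, build mm10 and GENCODE M21. Which aligner and counter made them, and with what read filters, is not given in the sources used here. Members and lists were chosen with earlier results of these data known. The strand column with the larger gene total in both libraries, 5058613 counts in replicate 2 and 3889280 in replicate 1, was taken as sense. This was 35.6% and 35.9% of the reads in the tables. Reads aligned to several places were 46.8% and 42.3%, unmapped reads 12.5% and 14.5%, and reads outside miRNA genes 5.15% and 7.33%. These summary lines were left out of all totals. CPM is the sense count scaled to a total of 1000000. Names, hosts and hairpins came from GENCODE M21 and mature sequences from RefSeq.

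Intervals are 95% Clopper-Pearson or exact conditional ones. Ratios used TMM sizes from edgeR 4.0.16 (R 4.3.3), and DESeq2 1.42.0 size factors were an alternative. The single group gives edgeR's quasi-likelihood test no contrast, so exact binomial and Fisher's exact tests (scipy 1.17.1) were used. The binomial test was checked on simulated counts with counting error alone, so the check does not cover further spread between libraries. Folds came from RNAfold 2.7.2. Named genes were the members, Mir378d, the next gene in level, miRNA genes within 500 kb, the 5 largest opposite-strand pairs, the 5 nearest ratios, the 5 other top intronic hairpins and the leading list members. Mir696 was not matched.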

Additional observations from a re-analysis of the deposited data

How the results depend on the processing

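The level of Mir378a, 124376 CPM, was 44448 when scaled to all reads in the tables and 142535 over the sense total without Mir378a. Without strand it was 0, and Mir378a shared the lowest rank, 691, with all genes at 0. With either library alone the level was 106198 to 142554 CPM, and the rank stayed 1. Its share of the listed hairpins, 99.97%, was 99.75% with Mir378d, 0% in the column that ignores strand, 99.98% per hairpin base (chosen after seeing the data) and 99.9681% to 99.9714% with either library alone. The ratio to Mir126a was 1.22 to 1.62 and the opposite-strand share of Gm25301 48.1% to 56.6% with either library alone. The log2 ratio of Mir378a was 0.42 to 0.56 over the alternatives that could give it; the column that ignores strand could not. Of 24 alternative values for Mir378b, Mir378c and Mir378d, 21 kept direction and call, 3 of Mir378b lost the call, and 0 reversed. The 24 include settings that added 0.1 or 10 CPM, which enter the log2 ratio but not the test. Under those settings neither call nor direction could change. Called genes numbered 174 to 199, against 187. A ratio between the libraries cannot be formed with 1 left out. No paired analysis was possible because there is a single group. Depth limits Mir378b and Mir378c most among the tested members, at 42 and 76 counts in replicate 1. Both also share long stretches with the far more abundant Mir378a, 19 nt for Mir378b and 20 nt for Mir378c. Whether reads from Mir378a add to their counts was not tested. Reads aligned to several places, given to no gene, limit every level.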

Other observations

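In the column that ignores strand, which lists Mir378a at 0, the top gene by mean level was Mirlet7g at 98149 CPM in replicate 2 and 88800 CPM in replicate 1, followed by Mir22, Mirlet7b, Mirlet7i and Mir23b. In replicate 2 alone Mir22 stood above it, at 109858 CPM. Mir126a, the second gene of the sense column, had 23 and 27 counts there.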
